A study of Rattus norvegicus with 18 samples.

Results

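The comparison described here sets T cells against heart allografts on days 1 and 3 after transplantation, in the rat. Its members are the 6 T cell arrays and the 6 heart arrays of those days, 12 of the 18 arrays of the series, taken by their labels of tissue and day. Donor hearts of the Wistar Furth strain were placed in the abdomen of ACI recipients. Recipients received cyclosporine plus an allochimeric class I peptide, cyclosporine alone or no treatment. Cyclosporine was given by mouth at 10 mg/kg/day on days 0 to 2, a course described as below the therapeutic dose, and the peptide at 1 mg/kg into the portal vein at transplantation. Each of the 6 combinations of treatment and day has 1 T cell array and 1 heart array, and the remaining 6 arrays, of day 7, served only to ask how the difference between the tissues changed later. All samples are male and carry the strain label Wistar Furth, T cells included, so neither the strain nor the organ of the T cells is settled by the labels, and how these cells were purified is not given in the sources used here. Whether a T cell array and a heart array came from the same animal, or whether RNA was pooled, is not in the labels. P-values therefore cover only how far these samples spread, and that spread may be technical.

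Heart muscle cells contract through sarcomeres, repeating units of myosin and actin filaments that are switched on by calcium released from the sarcoplasmic reticulum, and they draw most of their energy from fatty acids burned in mitochondria. The heart also holds fibroblasts, endothelial cells and vascular muscle. T cells recognise antigen through the T cell receptor, whose CD3 chains pass the signal to the kinases Lck and Zap70 and on to calcineurin, the phosphatase that cyclosporine inhibits. In heart rejection, recipient T cells enter the graft in large numbers during the first week, and days 1 and 3 lie early in that course.

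Values are intensities as deposited, 1 per probe set and array, and where several probe sets name 1 gene, the brightest stands for it. Each difference is T cells minus heart on the scale log2(intensity + 16), averaged over the 6 pairs of the same treatment and day, with the SE of the limma fit. A difference of 1 is a 2-fold change for bright genes, and the added 16 understates the change of dim ones. A gene was called where its p, adjusted over all probe sets tested, was below 0.05. Intensity ranges are over the 6 arrays of a tissue. Median intensity was 195 to 210 in the T cell arrays (194.5 at the lowest and 209.9 at the highest) and 210.2 to 230.9 in the heart arrays. Precision is limited by the number of arrays. Over all probe sets, arrays of different tissues correlated at 0.716 to 0.766, against 0.969 to 0.989 among the T cell arrays and 0.975 to 0.992 among the heart arrays. Actin has probe sets at its 3' and 5' ends, and their ratio, which rises as RNA breaks down, was 1.27 to 1.40 in T cells and 1.64 to 2.44 in heart. For GAPDH it was 1.45 to 1.62 in T cells and 1.50 to 1.65 in heart. Actin ratios therefore moved with tissue, and their part in the differences was not tested.

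Among the T cells, the array of untreated recipients on day 1 stood apart. It held 184 genes that were at least 1 log2 unit above all 5 other T cell arrays, against 0 to 9 genes in each of the others. Neutrophil genes led this excess: the granule gene S100a8 was at 12964 there and at no more than 878.9 in the other T cell arrays, and the summed intensity of the neutrophil genes was 42850.7 against 1456.3 to 3725.1. Its B cell sum was the highest (63387 against 26996 to 40933) and its T cell receptor sum the lowest (105506 against 132561 to 142521). Among the hearts, the untreated graft of day 3 held 30 such genes and the graft of cyclosporine plus peptide of day 3 held 16, while the other 4 held 0 to 2. Without the untreated pair of day 1, 12 of 625 list members and leading genes gained the call and 8 lost it, and these changes stand beside the genes named below.

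The tissues differed at most genes measured. Of 21923 probe sets tested, 10256 (46.8%) were higher and 7796 (35.6%) lower in T cells than in heart. Among the 11646 genes tested, 5128 (44%) were higher and 4484 (38.5%) lower, and the 6 T cell arrays did not overlap the 6 heart arrays at 8022 genes (68.9%). The median size of the difference was 0.76 and the median SE 0.10, so small differences passed the test as well as large ones. Differences beyond 4-fold, tested as such, were fewer and leaned to heart: 330 genes (2.83%) lay higher in T cells and 1144 (9.82%) lower. Past 5 log2 units lay 35 genes higher and 194 lower. The median of all probe sets tested was itself 0.16 as deposited, and 0.22 with quantile normalization over all arrays, 0.16 with it within each tissue and 0.27 with centring on array medians. The direction of a difference smaller than these medians may depend on the scaling.

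The 15 largest differences on the T cell side were led by Cd3d, a CD3 chain of the T cell receptor. Its intensities were 5657 to 9769 (median 8527) in T cells and 38.4 to 149.7 (median 64.4) in heart, a difference of 6.58 ± 0.18 (limma adjusted p = 1.21e-09). Cd3g and Cd3e, the other CD3 chains, were 5.47 ± 0.16 and 5.69 ± 0.22 higher, and Trat1, an adaptor of the receptor, was 5.61 ± 0.15 higher. Also among the 15 were Sit1 (6.53) and Cd6 (5.72), lymphocyte surface proteins that tune receptor signalling, the activation marker Cd69 (5.89), Ctsw (5.64), a cathepsin of cytotoxic lymphocytes, Tnfrsf14 (6.24), a receptor of the tumour necrosis factor family, and Dennd2d (5.74). B cell genes made up 4 of the 15: Cd79b of the B cell receptor (6.13), the coactivator Pou2af1 (6.09), the complement receptor Cr2 (5.74) and the immunoglobulin gene Ighl2 (5.63). Cd5l, secreted by tissue macrophages, was 6.35 higher. At each of these 15 genes the tissues did not overlap, as at 68.9% of all genes.

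Of the CD3 genes, Cd3d and Cd3g lie head to head on chromosome 8, with 1601 bases between their starts in the reference gene table of build GRCr8, and Cd3e starts 26251 bases from Cd3d. Both point away from the shared interval. The 250 bases before each start are shown because this pair of neighbours carried differences of 6.58 and 5.47. They are RefSeq sequences of build GRCr8, for Cd3d chr8:54185269-54185518 on the plus strand and for Cd3g chr8:54183919-54184168 on the minus strand.
Cd3d: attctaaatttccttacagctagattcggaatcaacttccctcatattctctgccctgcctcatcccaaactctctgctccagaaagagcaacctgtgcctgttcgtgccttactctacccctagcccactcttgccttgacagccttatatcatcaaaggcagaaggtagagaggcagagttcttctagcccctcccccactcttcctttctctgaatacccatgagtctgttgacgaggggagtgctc
Cd3g: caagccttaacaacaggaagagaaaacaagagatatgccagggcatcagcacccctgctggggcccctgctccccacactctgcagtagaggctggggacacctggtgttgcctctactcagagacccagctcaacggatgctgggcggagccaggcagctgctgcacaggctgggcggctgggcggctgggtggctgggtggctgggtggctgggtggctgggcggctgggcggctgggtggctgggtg
Neither stretch holds TATAAA, TAAAAATA or CCGGAAGT on either strand.

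Heart muscle genes held 13 of the 15 largest differences on the heart side and reached further than any on the T cell side. Myh7, the beta myosin heavy chain, was at 8.62 to 26.3 (median 19.1) in T cells and 16745 to 21860.4 (median 18399.6) in heart, a difference of -9.12 ± 0.11 (limma adjusted p = 1.47e-11). T cell intensities of Myh7 lie near the added 16, so the size depends on it: the difference was -10.0 with 1 added and -7.85 with 64 added. Nppa, which encodes atrial natriuretic peptide, was at 11.9 to 29.4 (median 17.5) in T cells and 14037 to 15323 (median 14598) in heart (-8.71 ± 0.10). The other muscle genes were Tnnt2 and Tnnc1 of troponin (-8.71 and -7.71), Myom2 and Myoz2 of the M band and Z disc (-8.46 and -8.42), the myosin light chains Myl2 and Myl3 (-8.22 and -8.19), skeletal actin Acta1 (-7.91), the mitochondrial creatine kinase Ckmt2 (-8.35), the oxygen store Mb (-7.99) and Pln (-7.75), which restrains the calcium pump. Cox6a2, the muscle form of a cytochrome c oxidase subunit, was at 35.4 to 46.7 (median 40.1) in T cells and 13985 to 15333 (median 14648) in heart (-8.03 ± 0.07). Postn and Lum, matrix proteins made by fibroblasts, were also among the 15 at -7.84 and -7.80. The plot of the 30 leading genes shows every array.

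**Figure D1:**
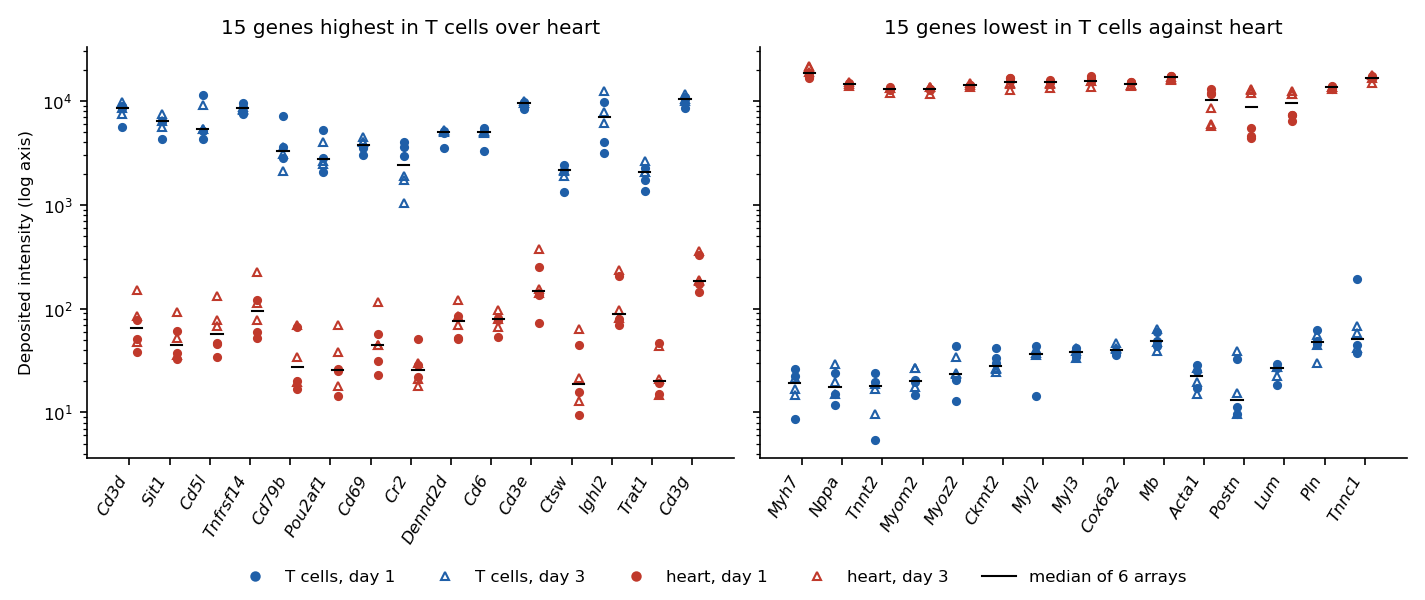
Intensity on a log axis of the 15 genes highest and the 15 genes lowest in T cells relative to heart on days 1 and 3, 1 point per array with T cells and heart in different colours. The tissues do not overlap at any of the 30 genes, nor at 68.9% of all genes tested. Myh7 spans from 8.62 in T cells to 21860 in heart.

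Of the 15 leading heart genes, 12 have a promoter in the RefSeq table (250 bases before to 50 after the gene start), and of the 15 leading T cell genes 8 do. The motif TATAAA, searched on both strands, lies in 4 of the 12 and in 1 of the 8. TAAAAATA, likewise on both strands, lies in 2 of the 12 and in 0 of the 8. The 250 bases before the starts of Nppa (chr5:163711934-163712183, plus strand) and Cox6a2 (chr1:192219717-192219966, minus strand) are shown as 1 example of each, with the motif in capitals.
Nppa: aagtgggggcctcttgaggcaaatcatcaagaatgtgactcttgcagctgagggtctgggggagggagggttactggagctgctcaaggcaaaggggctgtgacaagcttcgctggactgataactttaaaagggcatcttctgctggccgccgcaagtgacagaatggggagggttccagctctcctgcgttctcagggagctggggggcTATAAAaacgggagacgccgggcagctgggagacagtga
Cox6a2: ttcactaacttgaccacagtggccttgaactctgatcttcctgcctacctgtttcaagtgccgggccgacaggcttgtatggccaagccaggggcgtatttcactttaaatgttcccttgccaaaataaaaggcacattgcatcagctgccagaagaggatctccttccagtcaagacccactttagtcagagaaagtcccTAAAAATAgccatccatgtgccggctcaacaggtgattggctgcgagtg
The capitals start 39 bases before the start of Nppa and 49 before that of Cox6a2.

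Over larger sets, the promoters of the genes that differed beyond 4-fold had fewer CG dinucleotides than those of all genes. The ratio of CG found to CG expected from base content had a median of 0.454 in 255 promoters of genes higher in T cells, 0.594 in 869 promoters of genes lower in T cells and 0.759 in 9658 promoters of all genes tested. CCGGAAGT, on both strands, was in 0.392% of the first, 0.575% of the second and 7.87% of all. TAAAAATA was in 1.96% of the promoters higher in T cells, 3.45% of those lower in T cells and 1.16% of all, and TATAAA in 8.63%, 10.7% and 7.33%. These shares describe letters in the windows and no factor's binding. The genes were chosen by their difference, and the shares carry no test.

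The T cell receptor genes were higher in T cells throughout. All 26 tested genes of the receptor complex and its signalling were called higher, with a median of 4.67, against 0.09 over all genes, and 22 of the 26 passed beyond 4-fold. The zeta chain Cd247 was at 6845 to 9412 (median 9132) in T cells and 133 to 239 (median 204) in heart (5.41 ± 0.07). The coreceptor chains Cd8a and Cd8b were 4.98 ± 0.13 and 4.20 ± 0.13 higher and Cd4 was 1.95 ± 0.23 higher, with 652 to 977 (median 848) in T cells and 98.2 to 455 (median 221) in heart. Cd4 is also made by rat macrophages. Among the kinases and adaptors behind the receptor, Lck was at 12108 to 15334 (median 14251) in T cells and 548 to 923 (median 692) in heart (4.30 ± 0.09), and Zap70, Lat, Prkcq and Txk were 4.75, 5.25, 4.58 and 5.31 higher. Smaller differences belonged to genes with wider expression, such as the kinase Fyn (1.21 ± 0.07), and to the co-receptors Cd28 (1.87 ± 0.17) and Ctla4 (1.76 ± 0.11). In heart the summed intensity of these 26 genes was 5696 to 9317, against 105506 to 142521 in T cells. In bulk RNA, fewer cells of a type and less RNA per cell cannot be told apart.

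Genes of resting T cells that recirculate through lymphoid tissue were higher in 10 of 11 cases. The transcription factors Lef1 and Tcf7 led them at 5.16 ± 0.10 and 4.67 ± 0.07, with Tcf7 at 8845 to 10706 (median 9977) in T cells and 317 to 438 (median 365) in heart. Il7r, the receptor of the survival cytokine interleukin 7, was 4.22 ± 0.13 higher. Klf2 and S1pr1, which direct exit from lymphoid organs, were 1.58 ± 0.12 and 1.51 ± 0.07 higher, and both were also well measured in heart (2215 to 3565 (median 2456) and 2545 to 3434 (median 2984)). Actn1 did not pass (0.09 ± 0.05, adjusted p = 0.15). Of 14 genes of activated, helper and regulatory T cells, 13 were higher and Bcl6, a repressor used by follicular helper cells, was lower (-0.48 ± 0.12). The interleukin 2 receptor beta chain Il2rb (3.83 ± 0.08), the helper ligand Cd40lg (4.13 ± 0.15), the chemokine receptor Cxcr3 (4.20 ± 0.16) and the Th2 regulator Gata3 (3.57 ± 0.13) were among the higher. The effector cytokine Ifng was 0.79 ± 0.30 higher (limma adjusted p = 0.0306), with 29.5 to 187 (median 140.0) in T cells and 44.5 to 88.0 (median 54.8) in heart, and its groups overlapped.

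All 18 genes of cytotoxic and natural killer cells were higher, with a median of 3.21. Gzmm, a granzyme of natural killer cells, was at 3465 to 5383 (median 4843) in T cells and 78.9 to 162 (median 105) in heart (5.19 ± 0.14), and the pore protein Prf1 at 4949 to 6117 (median 5513) in T cells and 288 to 441 (median 336) in heart (3.93 ± 0.10). The granzymes that activated killer cells add differed less, Gzma by 2.85 ± 0.13 and Gzmb by 1.96 ± 0.08. The receptors Klrd1 (4.45), Klrk1 (3.88), Klrb1a (3.76) and Ncr1 (2.97), which natural killer cells use, were higher. At all 18 genes the tissues did not overlap, as at 68.9% of all genes.

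Transcription factors of lymphoid cells were higher in 16 of 18 cases and lower in 1, Ebf1 (-0.91 ± 0.20), a B cell factor that fat and stromal cells also make. Bcl11b and Runx3, which fix T cell identity, were 4.26 ± 0.10 and 4.27 ± 0.23 higher, and Stat4 and Myb 4.30 ± 0.11 and 3.86 ± 0.10. Of 16 genes of leukocyte movement and adhesion, 13 were higher, among them Coro1a (2.99 ± 0.09) and Rac2 (2.63 ± 0.12), regulators of the leukocyte actin skeleton, and Itgal (2.46 ± 0.13), a chain of the integrin LFA-1. Itgam, the integrin chain of myeloid cells, was lower (-2.47 ± 0.34).

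Markers of B cells and plasma cells were also above heart in the T cell arrays, and their part in the T cell differences was not tested. Of 17 B cell genes, 16 were higher, with a median of 3.06. Ms4a1, which encodes CD20, was at 3155 to 9721 (median 4809) in T cells and 80.6 to 148 (median 102) in heart (5.40 ± 0.23), and Cd22 was 3.70 ± 0.20 higher. The summed intensity of the B cell genes was 26996 to 63387 in T cells and 4202 to 6031 in heart. Of 6 plasma cell genes, 4 were higher and 2 lower, against 44% and 38.5% of all genes. The immunoglobulin joining chain Jchain was at 2696 to 9729 (median 4969) in T cells and 80.0 to 221 (median 118) in heart (5.09 ± 0.24). The plasma cell genes Sdc1 (-2.29 ± 0.21) and Xbp1 (-0.66 ± 0.12), which many other cells make, were lower. No tested gene of the B cell or plasma cell list was below 131 in any T cell array, and none was at or near 0. Tested genes had to lie above the 40th percentile of the array in at least 3 arrays. That percentile was 126.3 to 132.9 in the T cell arrays, so this bound partly reflects the filter.

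Of 21 macrophage genes, 8 were higher and 7 lower, shares near those of all genes (44% and 38.5%). The complement genes C1qa, C1qb and C1qc were 1.41 ± 0.11, 1.58 ± 0.11 and 1.37 ± 0.09 higher in T cells, where C1qb was at 4828 to 7225 (median 6482), against 1531 to 3036 (median 2033) in heart. The chemokine Ccl2, made by many injured tissues, was -7.02 ± 0.40, with intensities of -0.533 to 222 (median 12.2) in T cells and 4098 to 5561 (median 5097) in heart. Cd14 (-3.16 ± 0.24), Trem2 (-2.21 ± 0.32) and the mannose receptor Mrc1 (-0.81 ± 0.14) were lower too. Of 14 genes of red pulp macrophages, which recycle iron from red cells in the spleen, 9 were higher and 2 lower, against 44% and 38.5% of all genes. The lower ones were Hpgd (-1.18) and Clec4f (-0.63). Spic, their defining transcription factor, was at 1205 to 2407 (median 1679) in T cells and 32.3 to 219.9 (median 101) in heart (4.03 ± 0.29). Vcam1 (1.76 ± 0.13), Nr1h3 (1.65 ± 0.16) and the iron exporter Slc40a1 (1.49 ± 0.13) were higher with it. Without the untreated pair of day 1, 8 of the 21 macrophage genes were higher and 8 lower, and their median was 0.05, against 0.35 with it.

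Antigen presentation was represented by MHC class II genes. Of 8 MHC class II genes, 6 were called higher, against 44% of all genes, and 5 were called without the untreated pair of day 1. The invariant chain Cd74 was at 9474 to 15019.9 (median 11672) in T cells and 2754 to 7815 (median 5088) in heart (1.29 ± 0.25). RT1-Ba was 0.82 ± 0.31 with all pairs (limma adjusted p = 0.0345) and 0.48 without that pair (adjusted p = 0.0576). Of 9 dendritic cell genes, 4 were higher, led by Lamp3 of mature dendritic cells (2.31 ± 0.21), and 3 lower, led by the lectin Clec10a (-3.89 ± 0.31). The dendritic cell shares are near those of all genes (44% and 38.5%).

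Calls on neutrophil genes changed with 1 pair. With all pairs, 3 of 8 were lower in T cells: Lcn2, an iron-binding granule protein that stressed heart tissue also makes, at 21.4 to 74.3 (median 32.4) in T cells and 2450.0 to 12652 (median 4591) in heart (-6.42 ± 0.26), Il1r2 (-2.55 ± 0.39) and S100a9 (-1.15 ± 0.44). This share is near the 38.5% of all genes that were lower. Without the untreated pair of day 1, 8 of 8 neutrophil genes were lower and the median was -1.51, against -0.91 with it. S100a8 was then at -1.51 (limma adjusted p = 0.000119), against -0.87 ± 0.51 (adjusted p = 0.143) with all pairs.

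Red cell genes were higher in 8 of 11 cases, with Car1, a carbonic anhydrase, at 110.3 to 1085 (median 414) in T cells and 32.2 to 105 (median 60.8) in heart (2.50 ± 0.37), and Sptb, a spectrin that muscle also makes, lower (-2.89 ± 0.11). The beta globin gene Hbb was high in both tissues, at 7107 to 15473 (median 14191) in T cells and 11312 to 18374 (median 15618) in heart (-0.25 ± 0.09), and its call was lost under some alternatives. Platelet genes were higher in 2 of 6 cases and lower in 4, against 44% and 38.5% of all genes. The chemokine Pf4 was at -3.24 ± 0.22. Of 6 mast cell genes, the protease Mcpt1 was higher (2.70 ± 0.29) and 2 were lower, Tpsab1 (-0.74) and Tpsb2 (-0.35, lost under some alternatives). The same shares of all genes, 44% higher and 38.5% lower, stand beside the red cell, mast cell and thymocyte counts. Of 4 thymocyte genes, 3 were higher, among them Arpp21 (4.41 ± 0.16), with 1044 to 1745 (median 1679) in T cells and 33.6 to 71.7 (median 63.0) in heart. Without the untreated pair of day 1, all 4 thymocyte genes were higher, Cd1d1 being the one added (0.33, limma adjusted p = 0.0264), and 3 of the 6 platelet genes were lower. Of 10 red cell genes tested without that pair, 7 were higher, with a median of 0.57, against 0.93 with all pairs.

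Stromal genes of lymphoid organs were mostly lower in T cells. Of 11, 8 were lower in T cells and 1, the cytokine Tnfsf11 that T cells make, was higher (1.65 ± 0.12). The chemokines Ccl21 and Cxcl13, which guide T and B cells within lymph nodes, were -4.28 ± 0.14 and -3.60 ± 0.20, with Cxcl13 at 96.9 to 224 (median 138) in T cells and 1028 to 2757 (median 2173) in heart. Clu, a secreted chaperone abundant in heart, was -6.34 ± 0.11. Liver and pancreas genes tested were 3 higher and 4 lower, against 44% and 38.5% of all genes. Reg3b, an injury-induced lectin, was at 45.5 to 62.1 (median 57.1) in T cells and 4665 to 10409 (median 7556) in heart (-6.66 ± 0.15). Cela1, an elastase, was 3.03 ± 0.17, with 108 to 285 (median 160.5) in T cells and 2.09 to 15.5 (median 6.50) in heart.

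**Figure D2:**
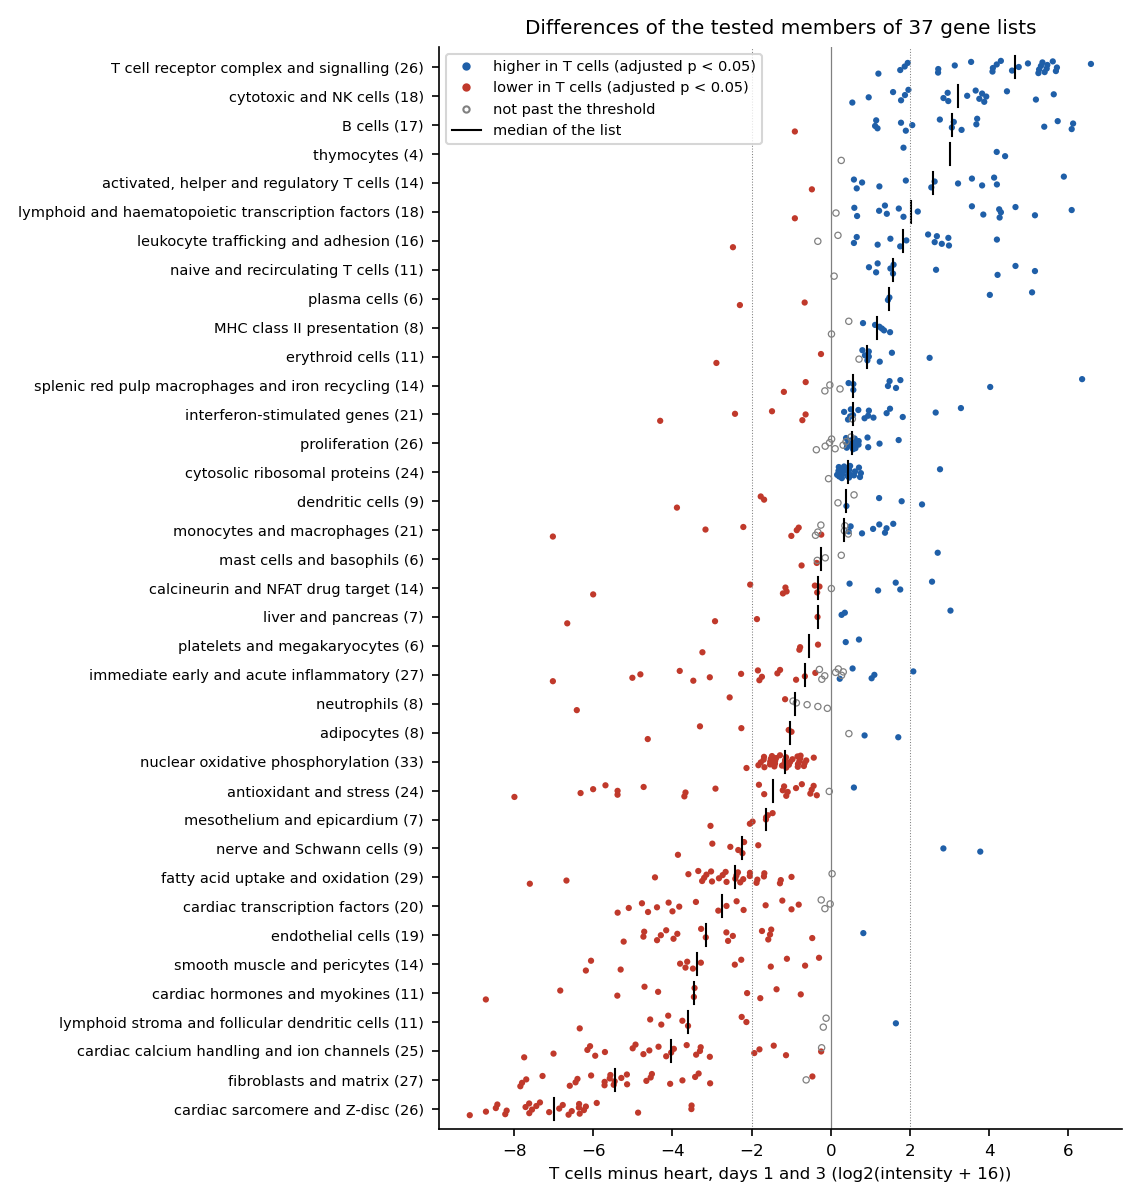
T cells minus heart difference on the log2(intensity + 16) scale for the members of the gene lists, 1 point per tested gene with the median of each list. Sarcomere genes reach up to -3.52, T cell receptor genes start at 1.21, and macrophage, interferon and calcineurin lists straddle 0.

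All 26 sarcomere genes were lower in T cells, each beyond 4-fold, with a median of -6.99. Their summed intensity was 1940 to 2381 in T cells and 268093 to 306162 in heart. The giant spring protein Ttn was at 75.0 to 154 (median 88.2) in T cells and 11561 to 14060.3 (median 13299) in heart (-6.86 ± 0.14), and Tnni3, the cardiac troponin I measured in blood after infarction, at 10.9 to 88.4 (median 60.6) in T cells and 11687 to 14259 (median 13481) in heart (-7.62 ± 0.23). Myh6, the fast alpha myosin of rodent ventricle, and Synpo2l differed least, by -3.52 ± 0.15 and -3.52 ± 0.13. Myh6 was at 235 to 288 (median 259) in T cells and 1695 to 4042 (median 3393) in heart.

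Calcium handling and ion channel genes were lower in 24 of 25 cases (median -4.03), 19 of them beyond 4-fold. Ryr2, the channel that releases calcium from the sarcoplasmic reticulum, was at 27.8 to 51.1 (median 33.9) in T cells and 6019 to 7371 (median 6393) in heart (-7.00 ± 0.09). The gap junction protein Gja1 (-6.08 ± 0.10) and the calcium store Casq2 (-6.15 ± 0.08) were close behind. The sodium-calcium exchanger Slc8a1 differed less (-1.80 ± 0.17), with 714 to 1534 (median 953) in T cells and 3271 to 3965 (median 3609) in heart. The pacemaker channels were the exception, Hcn4 at -0.24 ± 0.10 (adjusted p = 0.0471, lost under some alternatives) and Hcn2 at -0.23 ± 0.12 (adjusted p = 0.1). Without the untreated pair of day 1, Hcn4 was -0.18 (limma adjusted p = 0.12) and Hcn2 -0.30 (adjusted p = 0.0447).

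Transcription factors of the heart were lower in 17 of 20 cases, 12 beyond 4-fold, and in 18 without the untreated pair of day 1. Gata4 was at 96.0 to 126 (median 115) in T cells and 1607 to 2184 (median 2154) in heart (-4.00 ± 0.10), Tbx5 at 11.2 to 23.1 (median 17.6) in T cells and 486 to 664 (median 533) in heart (-4.10 ± 0.11), and Gata6 differed by -5.10 ± 0.11. Esrrg, a nuclear receptor that drives mitochondrial genes, led at -5.38 ± 0.15. Factors used in both lineages were nearer to 0: Mef2c at -1.64 ± 0.20, Mef2a at -0.81 ± 0.08 and Mef2d at -0.01 ± 0.09 (adjusted p = 0.901). Hopx reached 2842 in the untreated T cell array of day 1 and 1391 to 2198 (median 1901) in heart (-1.22 ± 0.34). Of the secreted hormones and growth factors, all 11 were lower, among them Nppb (-5.39 ± 0.10), Ccn2 (-6.83 ± 0.10) and Vegfa (-4.36 ± 0.09).

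Genes of fatty acid uptake and oxidation were lower in 28 of 29 cases, with a median of -2.41. Fabp3, the fatty acid carrier of muscle, was at 59.8 to 79.4 (median 70.0) in T cells and 15776 to 17851 (median 16404) in heart (-7.60 ± 0.06), and Lpl, which frees fatty acids from lipoproteins, differed by -6.68 ± 0.18. The enzymes of the mitochondrial spiral differed by less: Acadm was at 1968 to 2614 (median 2359.8) in T cells and 11174 to 12839 (median 12593) in heart (-2.41 ± 0.05), and Hadha at 2971 to 3221 (median 3085) in T cells and 9768 to 10129 (median 9970.3) in heart (-1.69 ± 0.05). Genes of oxidative phosphorylation differed less again. All 33 nuclear genes were lower, 0 of them beyond 4-fold, with a median of -1.16. The differences ran from -2.13 ± 0.10 at Ndufs1 of complex I to -0.43 ± 0.11 at Cox5a of complex IV, with Cox4i1 at 9496 to 11104 (median 9983) in T cells and 14692 to 15997 (median 15524) in heart (-0.62 ± 0.05). At 32 of the 33 the tissues did not overlap, as at 68.9% of all genes. Antioxidant and stress genes were lower in 22 of 24 cases, from Mb (-7.99), which the list also holds, to the peroxiredoxin Prdx2 (-0.35). The small heat shock protein Hspb1 was -6.32 ± 0.23, the secreted peroxidase Gpx3 -6.0 ± 0.12 and the superoxide dismutase Sod1 -0.88 ± 0.06, and Dnajb1 was the 1 higher (0.59 ± 0.06).

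Other cells of the heart were seen as well. Fibroblast and matrix genes were lower in 26 of 27 cases, with a median of -5.46: the proteoglycan Dcn was at 45.4 to 82.6 (median 53.4) in T cells and 13803 to 16205 (median 14767) in heart (-7.69 ± 0.09), and the collagen gene Col1a2 at 40.9 to 107 (median 51.4) in T cells and 7549.6 to 16917 (median 12488) in heart (-7.28 ± 0.22). Vim, an intermediate filament of both cell types, was -0.46 ± 0.11. Thy1, made by rat fibroblasts and by early T cells, was -0.62 ± 0.35 (adjusted p = 0.126), and -0.94 without the untreated pair of day 1 (limma adjusted p = 0.0127), where all 27 genes were lower. Fn1 reached 3920 in the untreated T cell array of day 1, against 453 to 549 in the other 5, and was -3.43 ± 0.41.

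Endothelial genes were lower in 18 of 19 cases, among them the sialomucin Emcn (-5.23 ± 0.10), the angiopoietin receptor Tek (-3.88 ± 0.12) and Vwf, a clotting carrier (-1.58 ± 0.10). Plvap, of fenestrated endothelium, was higher in T cells, at 1393 to 3221 (median 1723) in T cells and 783 to 1773 (median 976) in heart (0.82 ± 0.17), and the tissues overlapped. Smooth muscle and pericyte genes were lower in all 14 cases, from Abcc9 (-6.06 ± 0.12) to Pdgfrb (-0.29 ± 0.11, lost under some alternatives). All 7 mesothelial genes were lower (Wt1 -3.04 ± 0.14). Of 8 fat cell genes, 5 were lower, against 38.5% of all genes. Plin4 led them (-4.62 ± 0.12), and Cfd (1.71 ± 0.27) and Pparg (0.86 ± 0.12) were higher. Of 9 nerve genes, 7 were lower, led by the sodium channel Scn7a (-3.86 ± 0.27). The myelin gene Mbp, also transcribed in blood cells, and the receptor Gfra3 were higher, with Gfra3 at 1509 to 2626 (median 2427) in T cells and 104 to 225 (median 146) in heart (3.78 ± 0.14).

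Many proteins of muscle have a close relative that other cells use, and these families were compared gene by gene. Muscle here includes heart muscle, and for lactate dehydrogenase Ldhb (-1.51) was counted as the muscle form and Ldha (-0.52) as the other. All 31 tested muscle forms were lower in T cells, with a median of -5.26, against 38.5% lower among all genes. Of 34 tested other forms, 11 were higher and 16 lower, with a median of -0.05. In 22 of the 24 families with both kinds tested, every muscle form had a lower difference than every other form. The exceptions were myosin heavy chains, where Myh10 (-3.74) lay below Myh6 (-3.52), and hexokinases, where Hk1 (-1.24) lay below Hk2 (-1.01). In 10 families a muscle form was lower and another form higher. Whether probe sets of relatives share signal was not tested.

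The calcium pumps were one such pair. Atp2a2, the pump of cardiac sarcoplasmic reticulum, was at 693 to 1036 (median 865) in T cells and 17510.1 to 18904 (median 18171) in heart (-4.35 ± 0.08). Atp2a3, the pump of blood cells, was at 4488 to 6536 (median 5573) in T cells and 368 to 562 (median 509) in heart (3.45 ± 0.08). The release channels divided the same way, with Ryr2 lower (-7.00) and the inositol trisphosphate receptors Itpr3 (2.23 ± 0.17) and Itpr2 (0.79 ± 0.08) higher in T cells, while Itpr1 was 0.11 ± 0.07 (adjusted p = 0.188). Glycogen phosphorylase had Pygm of muscle at -4.69 ± 0.08 and Pygl, the liver form, at 1.52 ± 0.13. Among structural proteins, Flnc was -5.81 ± 0.21 and Flna 0.88 ± 0.11, Tpm2 -5.91 ± 0.12 and Tpm3 1.01 ± 0.06, and Myl2 -8.22 and the non-muscle light chain Myl12b 1.26 ± 0.06.

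In mitochondria, the muscle subunit Cox6a2 was -8.03 while Cox6a1, the form of other tissues, was at 5443 to 6609.7 (median 5941) in T cells and 5425 to 6728 (median 6054) in heart (-0.03 ± 0.06, adjusted p = 0.589). Cox8b was -6.44 ± 0.12 and Cox8a -0.36 ± 0.05. The nucleotide carrier Slc25a4 was -2.10 ± 0.06 and Slc25a5 0.24 ± 0.04, and the fatty acid gate Cpt1b was -4.44 ± 0.09 and Cpt1a 0.04 ± 0.07 (adjusted p = 0.656). Slc25a5 and Pgam1 (-0.13 ± 0.05) have differences smaller in size than 0.27, the median of all probe sets with centring on array medians. Pgam1 turned to 0.070 with quantile normalization over all arrays, while Slc25a5 kept its call and direction under the alternatives.

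**Figure D3:**
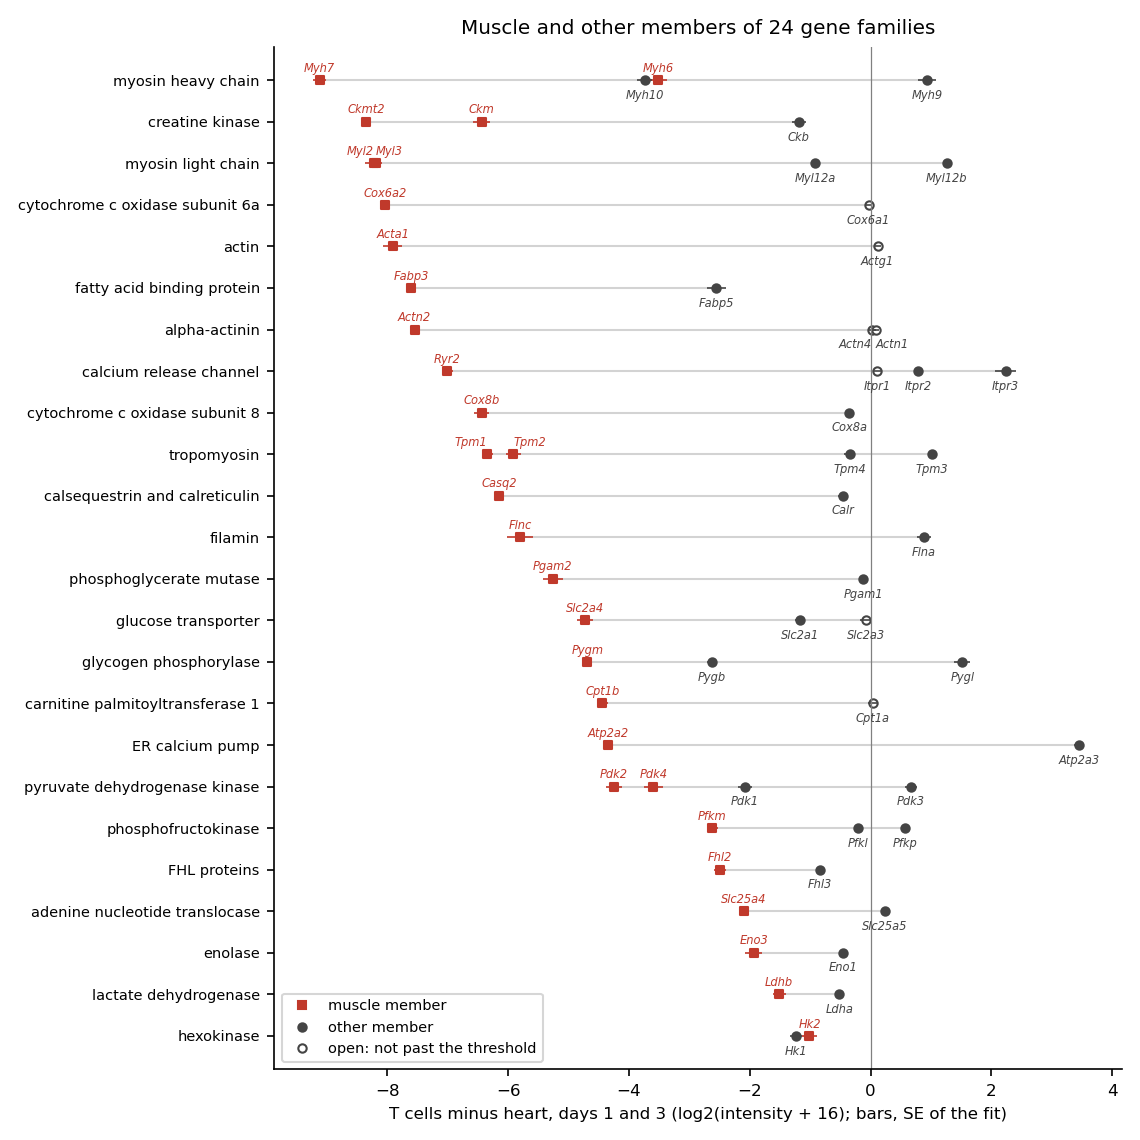
T cells minus heart difference on the log2(intensity + 16) scale for the 24 families with both kinds tested, 1 point per tested gene with its SE and with muscle forms and other forms in different colours. The muscle forms plotted lie between -9.12 and -1.01, and other forms reach 3.45 at Atp2a3.

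Cytosolic ribosomal protein genes were higher in T cells in 23 of 24 cases, with a median of 0.43. The differences were small, from 0.16 ± 0.05 at Rplp0 to 0.76 ± 0.05 at Rps15, with the exception of Rps13 at 432 to 653 (median 573) in T cells and 46.7 to 101 (median 63.8) in heart (2.76 ± 0.17). The heart values of Rps13 lie below the 40th percentile of those arrays (135.2 to 144.6). Whether its probe set measures the gene well was not tested. The smaller of the ribosomal differences lie below 0.27, the median of all probe sets with centring on array medians. Of 26 proliferation genes, 18 were higher and 0 lower (median 0.54), against 44% and 38.5% of all genes. The replication helicase genes Mcm3 and Mcm7 led at 1.72 ± 0.09 and 1.23 ± 0.07, while Mki67 (0.51 ± 0.24, adjusted p = 0.0729) and Cdk1 (-0.14 ± 0.18, adjusted p = 0.475) did not pass. Of these 18 calls, 10 were lost under some alternative, most of them mitotic genes such as Aurka (0.56 ± 0.18), and without the untreated pair of day 1 there were 15 higher and 1 lower, Cdk1 (-0.31, limma adjusted p = 0.0461).

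Interferon-stimulated genes were higher in 15 of 21 cases and lower in 5, against 44% and 38.5% of all genes. Oas1b and Mx1, antiviral effectors, were 3.29 ± 0.18 and 2.65 ± 0.12 higher, with Mx1 at 4116 to 6067 (median 5373) in T cells and 597 to 1009 (median 828) in heart. The lower ones were the chemokines Cxcl11 (-4.31 ± 0.25), Cxcl9 (-2.42 ± 0.16) and Cxcl10 (-1.48 ± 0.18), which attract activated T cells through Cxcr3, and Ifit2 and Ifit3. Cxcl9 was at 87.9 to 175 (median 105) in T cells and 465 to 1762 (median 557) in heart, and Cxcr3 itself was 4.20 higher in T cells.

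Immediate early and acute inflammatory genes were lower in 15 of 27 cases and higher in 5, against 38.5% and 44% of all genes. The neutrophil chemokines Cxcl2 and Cxcl1 were -5.01 ± 0.28 and -4.81 ± 0.21, the stress factor Atf3 -3.81 ± 0.20 and Il6 -2.26 ± 0.34. Tnf was the largest on the other side, at 592 to 801 (median 608) in T cells and 95.2 to 244 (median 124) in heart (2.09 ± 0.13).

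The genes of the calcineurin pathway, the target of cyclosporine, were 5 higher and 8 lower of 14, against 44% and 38.5% of all genes. NFAT factors, which calcineurin activates in T cells, were higher for Nfatc2 (2.56 ± 0.08), Nfatc1 (1.64 ± 0.10) and Nfatc3 (1.20 ± 0.12) and lower for Nfatc4 (-1.11 ± 0.08). The calcineurin regulators divided: Rcan2 was at 44.4 to 87.9 (median 65.5) in T cells and 4264 to 5752 (median 5345) in heart (-6.0 ± 0.12), Rcan1 was -2.03 ± 0.13, and Rcan3 was 1.76 ± 0.07. The catalytic subunits of calcineurin were -0.34 ± 0.08 for Ppp3ca, 0.48 ± 0.06 for Ppp3cb and -1.14 ± 0.10 for Ppp3cc, and the regulatory subunit Ppp3r1 was 0.02 ± 0.06 (adjusted p = 0.793).

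Whether the difference between the tissues moved between days 1 and 3 was tested as an interaction, with 2 residual degrees of freedom before moderation. The heart's actin ratio fell over these days in each treatment. In cyclosporine plus peptide, cyclosporine and untreated animals it was 2.44, 2.273 and 1.843 on day 1. On day 3 it was 1.816, 1.865 and 1.644, and its part in the change was not tested. With limma, 24 of 21923 probe sets (0.109%) had a higher difference on day 3 and 121 (0.552%) a lower one, and 4716 had an unadjusted p below 0.05. The counts moved with the processing, from 2 to 107 higher and from 6 to 234 lower over the alternatives that kept all arrays. In fits added after seeing the data that left out 1 pair each, with 1 residual degree of freedom, 215 were higher and 640 lower without the cyclosporine day 1 pair, 212 and 597 without the cyclosporine day 3 pair, 0 and 13 without the cyclosporine plus peptide day 1 pair, and 0 and 0 without the cyclosporine plus peptide day 3 pair. Without the untreated day 1 pair they were 22 and 136, and without the untreated day 3 pair 28 and 132. Tnn, the matrix protein tenascin N, changed most, by -5.02 ± 0.26 (adjusted p = 0.00199). Its T cell intensities in cyclosporine plus peptide, cyclosporine and untreated animals were 57.7, 48.7 and 38.4 on day 1 and 58.1, 56.8 and 60.7 on day 3, while the hearts read 32.2, 20.7 and 11.5 on day 1 and 1089, 1275 and 1841 on day 3. The T cells stayed low and the hearts of day 3 were all above those of day 1. Tnn passed the filter on dim probe sets only through those hearts of day 3, so its place as the largest change is not independent of them. Other matrix genes moved the same way, Cthrc1 by -3.19 ± 0.29 and the collagen hydroxylase subunit P4ha3 by -3.0 ± 0.30.

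The remaining genes of lowest change were A2m (-2.54 ± 0.21), a protease inhibitor, Siglec5 (-2.07 ± 0.29), the serotonin receptor Htr2b (-2.05 ± 0.26), Fcrl2 (-2.04 ± 0.22), the growth cone protein Gap43 (-1.95 ± 0.18), Thy1 (-1.92 ± 0.30) and Tmem178a (-1.84 ± 0.22). Thy1 read 215, 161 and 354 in T cells on day 1 and 186, 175 and 159.9 on day 3, and 180.1, 183 and 174 in heart on day 1 and 477, 529.8 and 661 on day 3. On the other side Ankrd2, a stretch-responsive muscle protein, changed by 1.93 ± 0.20 (adjusted p = 0.0293). It read 107, 86.8 and 76.8 in T cells on day 1 and 144, 78.6 and 91.9 on day 3, and 305, 215 and 365 in heart on day 1 and 91.3, 42.8 and 96.4 on day 3. Heart values of day 3 were below those of day 1 with no overlap. The sodium channel genes Scn7a and Scn3b changed by 1.49 ± 0.24 and 1.37 ± 0.15, Klhl40, a sarcomere chaperone, by 1.45 ± 0.23, and Pnmt, which makes adrenaline, by 1.33 ± 0.19. Adora2a, Ptgfr, Bdh1, Prepl and Alg3 changed by 1.08 to 1.24. In the fits that left out 1 pair each, Adora2a, Bdh1, Prepl and Alg3 passed in 2 of 6, and without the untreated pair of day 1 their adjusted p was 0.0561, 0.0544, 0.0544 and 0.0666. Of the 16 others of these 20 genes, each lost its call in at least 1 of those fits except Tnn and A2m. Tnn and A2m were tested in only 3 of the fits and passed in these 3. For Tnn, a fit without 1 of the hearts of day 3 leaves it below the filter. Its change was therefore not tried without those hearts. Of the genes on the lists, Cd4 (-1.32 ± 0.18), Lcp2 (-1.01 ± 0.16) and Tnfrsf9 (-1.64 ± 0.25) of the T cell lists had a lower difference on day 3, as did Lox (-1.18 ± 0.17) and Col5a2 (-1.19 ± 0.15) among matrix genes. Cd4 read 652, 799 and 977 in T cells on day 1 and 795, 897 and 943 on day 3, and 98.2, 121 and 137 in heart on day 1 and 305, 308 and 455 on day 3.

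The T cell receptor list had a median difference of 4.62 on day 1 and 4.71 on day 3, and the sarcomere list -7.07 and -6.98. MHC class II genes had a median of 1.75 on day 1 and 0.50 on day 3, with 0 of 8 called. Macrophage genes had 0.75 on day 1 and -0.23 on day 3, with 2 of 21 called, both lower. The untreated T cell array of day 1, with its high MHC class II sum (57745, against 27037 to 38552 in the other T cell arrays), is 1 of the 3 on that day.

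Whether the tissue difference depended on treatment was tested with an F test over the 3 treatments, each with 1 pair on day 1 and 1 on day 3. With limma 0 of 21923 probe sets passed (0%). An unadjusted p under 0.05 was found for 1447, and 1096 would be expected if none differed. Simulated treatment changes of 2 log2 units were recovered in 49.5% of cases and changes of 1 in 0%, so a change of that size was not detectable. The largest value, not past the threshold, was that of Gstt3, a glutathione transferase, whose difference was -2.50 with cyclosporine plus peptide and -2.71 with cyclosporine, both relative to no treatment (adjusted p = 0.165). Ifng was 1.44 and 1.69 on the same terms (adjusted p = 0.604). Its T cell intensities in cyclosporine plus peptide, cyclosporine and untreated animals were 175, 166 and 29.5 on day 1 and 91.2, 187 and 114 on day 3, and its heart intensities 49.6, 59.2 and 64.3 on day 1 and 44.5, 50.4 and 88.0 on day 3. The protease Mmp12 was -1.63 and -1.73 (adjusted p = 0.255). Both contrasts share the untreated pairs. In fits added after seeing the data, 421 probe sets passed without the untreated day 3 pair, 4 without the untreated day 1 pair and 0 without each of the other 4 pairs.

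By day 7 the tissue difference had changed for many genes. Tested over all 18 arrays against the mean of days 1 and 3, 2149 of 11794 genes (18.2%) had a higher difference on day 7 and 1954 (16.6%) a lower one. Of the 26 T cell receptor genes, 25 had a lower difference, and the median was 1.84 on day 7. Cd3d read 9779, 9639 and 8237 in T cells of cyclosporine plus peptide, cyclosporine and untreated animals on day 7 and 2469, 2458 and 1926 in the hearts of day 7, and its difference changed by -4.57 ± 0.28 (limma adjusted p = 1.48e-06). T cells of day 7 lay within or just above their range of days 1 and 3, and the hearts lay far above theirs. Tnfrsf14, Cd3e, Cd69, Ctsw and Cd3g changed by -4.72 to -3.60. The summed T cell receptor intensity of the hearts was 37881 to 45619 on day 7, against 5696 to 9317 on days 1 and 3.

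Cytotoxic genes followed, with 15 of 18 at a lower difference and a median of 1.16 on day 7. Gzma was at -0.01 and Gzmb at -0.74 on day 7, as T cells minus heart. B cell genes did so in 14 of 17 cases. Interferon-stimulated genes turned, with 20 of 21 at a lower difference and a median of -1.02 on day 7, and MHC class II genes with 8 of 8 and a median of -1.64. The largest falls of all were Ido1, a tryptophan-degrading enzyme (-5.40 ± 0.25), and Ubd, a ubiquitin-like protein induced by interferon gamma (-5.27 ± 0.30). Ido1 read 29.2, 34.4 and 23.2 in T cells of day 7 and 2413, 2219 and 2831 in hearts of day 7. It was too dim for the test of days 1 and 3. It therefore passed the filter here only through the hearts of day 7, and its rank is not independent of them. The Fc receptor Fcgr3a (-4.24 ± 0.36) and the class I gene RT1-CE5 (-3.70 ± 0.28) completed the 10.

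Heart genes changed the other way. Of 29 fatty acid genes, 28 had a higher difference on day 7, and their median was -1.14, against -2.41 on days 1 and 3. Hadh, of beta oxidation, read 1955, 1869 and 1548 in T cells of day 7 and 2205, 1873 and 1457 in hearts of day 7, and its difference changed by 2.79 ± 0.13. Oxidative phosphorylation genes did so in 27 of 33 cases and endothelial genes in 12 of 19, with the water channel Aqp1 at 3.61 ± 0.69. Sarcomere genes did so in 9 of 26 cases, and their median remained -6.65. The others of the 10 largest rises were Sult1a1 (3.89 ± 0.24), Cxcl2 (3.25 ± 0.48), Aplnr (3.20 ± 0.22), Pik3c2g (3.10 ± 0.34), Scn7a (2.89 ± 0.46), LOC100910949 (2.83 ± 0.51), Pgam2 (2.78 ± 0.44) and Reg3b (2.71 ± 0.38).

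These day 7 counts rest on few arrays. Without the cyclosporine arrays 702 genes had a higher difference and 768 a lower one, and without those of cyclosporine plus peptide 1194 and 1165. The heart's actin ratio was 1.41 to 1.43 on day 7 and 1.64 to 2.44 on days 1 and 3, and its part in the change was not tested.

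**Figure D4:**
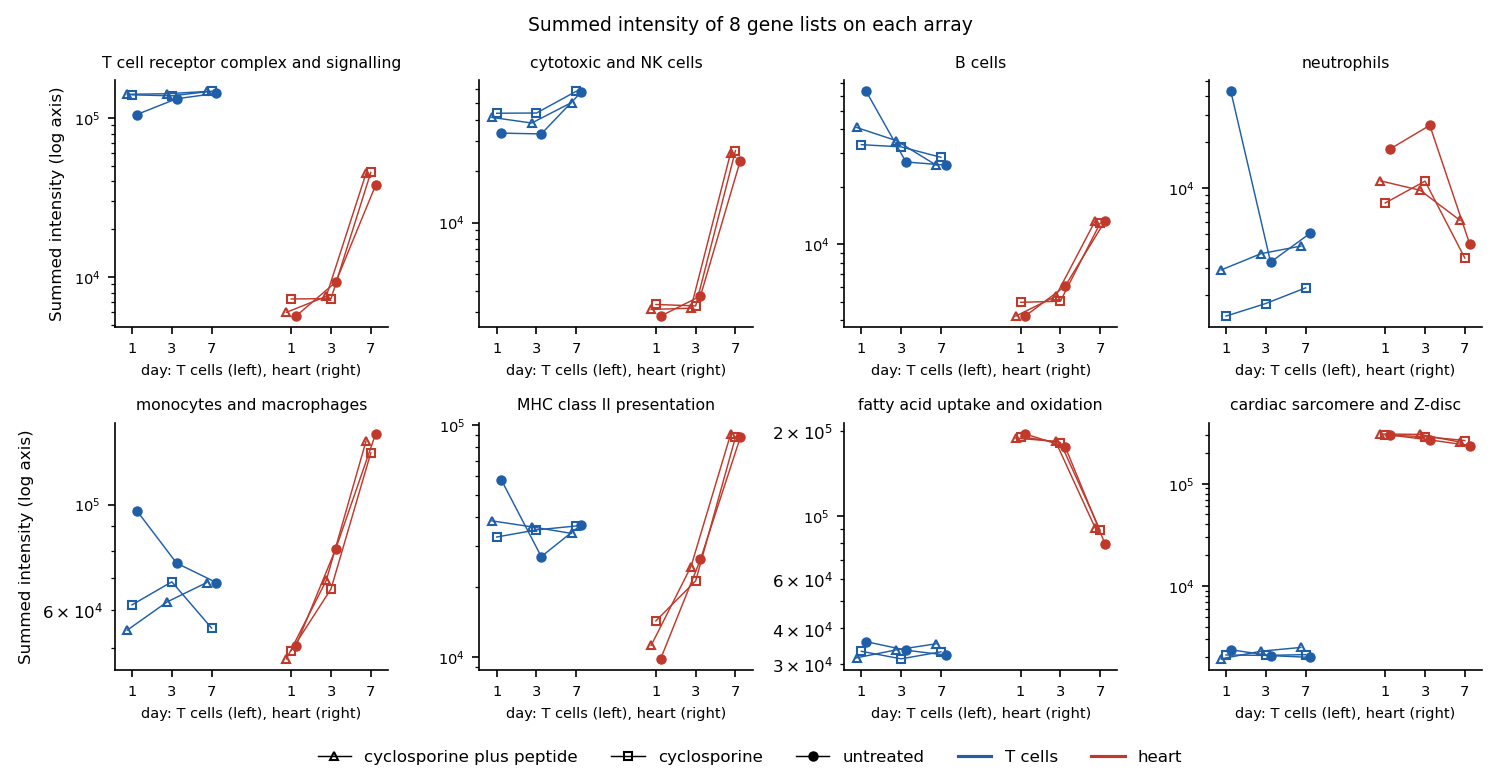
Summed intensity on a log axis of selected gene lists on each array, by day, with T cells and heart in different colours and a marker for each treatment. T cell receptor genes sum to 5696 to 9317 in the hearts of days 1 and 3 and to 37881 to 45619 in those of day 7, and the neutrophil sum of the untreated T cell array of day 1 stands at 42851.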

How the data were processed

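Probe set intensities are used as the authors deposited them in the series matrix, 1 column per array. Per the labels' protocols, biotin-labelled cRNA was hybridised to a 1-colour rat expression array, and neither software nor normalization is given in the sources used here. The scale was read from the values, which are linear and include 522 values below 0 (0.14%) over the 12 arrays. These were set to 0 before log2(intensity + 16). Of 31099 probe sets, 57 controls were left out, and of the rest 20826 carried 1 gene symbol, 436 several and 9780 none. A gene was represented by its probe set of highest mean over the 12 arrays, which gave 14217 genes. Probe sets were tested where they lay above the 40th percentile of their array in at least 3 arrays.

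The pairs of treatment and day come from the labels, not from shared animals. limma 3.58.1 in R 4.3.3 fitted tissue with the pair as a block (5 residual degrees of freedom, moderated with a trend on mean level), and differences beyond 4-fold were tested with its treat function. Changes between days 1 and 3 (2 residual degrees of freedom), between treatments (moderated F test) and at day 7 (18 arrays, 7 residual degrees of freedom) were fitted as interactions. P-values were adjusted by Benjamini-Hochberg over all probe sets tested, at 0.05. Alternatives covered the added constant, filter, normalization, trend, block and each pair left out.

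Genes were taken as the 15 largest differences per direction, up to 6 members per list with up to 4 against its direction, all related muscle and other forms, and the 10 largest changes per direction of each interaction. Other list members were chosen after their values were seen. The members and lists were chosen with earlier results of these data known. Of 781 entries in 37 lists, 643 had a probe set, 3 of them by a synonym. In simulated data with 200 changed probe sets, the tissue fit recovered 44%, 91.5% and 98.5% of changes of 0.5, 1 and 2 log2 units, the fit between days 1 and 3 0%, 0% and 69.5%, and the day 7 fit 0%, 38% and 84%. Noise in these simulations was the spread of the differences over all pairs, real changes between pairs included, so recovery may be understated. Promoters are RefSeq sequences of build GRCr8, and protein sequences were not used here.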

Additional observations from a re-analysis of the deposited data

Results flagged for a closer look

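In 20 of 134 groups of 6 arrays examined, 1 array lay far from the other 5, and chance gives this in about 1 group in 20. The untreated T cell array of day 1 accounted for 14 of them. Its summed intensity was the lowest of the T cell arrays for T cell receptor genes (105505.7), naive T cell genes (53580.6) and activated T cell genes (19422.7). Its sums were the highest for neutrophils (42850.7), dendritic cells (13875.0), platelets (3504.5) and immediate early genes (29525.7). They were the highest also for cardiac transcription factors (8681.8), endothelium (11108.8) and fibroblasts (17388.5). Single genes set apart there were Dennd2d (3512.0), Cd6 (3281.7), Cd3e (8327.7) and Tnnc1 (194.4), and Myl2 was at 14.5 in T cells of cyclosporine plus peptide on day 1. Among hearts, the untreated graft of day 3 stood apart in the sums of calcium handling genes (91940.9), cardiac transcription factors (23911.7), activated T cell genes (6373.8) and immediate early genes (58148.3), and the cyclosporine graft of day 1 in smooth muscle genes (26369.1).

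The tissue difference changed between days, by limma's interaction test, for the genes with the largest changes. From day 1 to day 3 the change was 1.93 for Ankrd2, 1.49 for Scn7a, 1.45 for Klhl40, 1.37 for Scn3b, 1.33 for Pnmt, 1.24 for Adora2a, 1.21 for Ptgfr, 1.19 for Bdh1, 1.12 for Prepl and 1.08 for Alg3. It was -5.02 for Tnn, -3.19 for Cthrc1, -3.0 for P4ha3, -2.54 for A2m, -2.07 for Siglec5, -2.05 for Htr2b, -2.04 for Fcrl2, -1.95 for Gap43, -1.92 for Thy1 and -1.84 for Tmem178a. At day 7 against days 1 and 3 it was 3.89 for Sult1a1, 3.61 for Aqp1, 3.25 for Cxcl2, 3.20 for Aplnr, 3.10 for Pik3c2g, 2.89 for Scn7a, 2.83 for LOC100910949, 2.79 for Hadh, 2.78 for Pgam2 and 2.71 for Reg3b. On the lower side it was -5.40 for Ido1, -5.27 for Ubd, -4.72 for Tnfrsf14, -4.66 for Cd3e, -4.57 for Cd3d, -4.24 for Fcgr3a, -4.22 for Cd69, -4.21 for Ctsw, -3.70 for RT1-CE5 and -3.60 for Cd3g.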

How the results depend on the processing

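The count of probe sets higher in T cells fell to 6749 with a filter at the 60th percentile in at least 6 arrays, which tests fewer probe sets, against 10256. Without the block on pairs it was 10343, with 7873 lower, and both counts moved by less than 1.5 times without the pairing. Leaving out each pair in turn gave 9756 to 10241 higher and 7424 to 7701 lower, and 296 to 358 and 1100 to 1202 genes beyond 4-fold. Genes higher beyond 4-fold were 202 over all 9 pairs, against 330. The share of higher calls among all calls was 56.81%, and 55.08% to 60.95% over the alternatives. For the change between days 1 and 3, the 24 higher probe sets became 107 with median centring, 43 without terms for tissue by treatment, 10 without a trend, 8 with 1 added, 44 with 64 added and 2 with the stricter filter. The 121 lower became 234 with median centring, 52 without a trend, 50 with 1 added and 6 with the stricter filter. Leaving out each pair in turn, chosen after seeing the data, gave 0 to 215 higher and 0 to 640 lower. The count for treatments stayed at 0 under the alternatives that kept all arrays, and was 0 to 421 with each pair left out. Leaving out the arrays of each treatment in turn gave 702 to 1957 genes higher and 768 to 1799 lower at day 7. Of 7537 recomputed values of 630 genes, 7377 kept their call and direction, 107 (33 genes) lost the call and 52 (29 genes) gained it, and Pgam1 turned to 0.070 with quantile normalization over all arrays, against -0.13. The mast cell list had a median of 0.03 without the cyclosporine plus peptide day 1 pair. Beyond fewer arrays and probe sets, the cause was not tested. Values below 0 and near the added constant have no order, and there is 1 array per tissue, treatment and day.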

Other observations

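Single arrays held high values of genes not described above. In the untreated T cells of day 3, Prss3, a trypsinogen of the pancreas, read 1845.3, against 110.0 to 293.9 in the other T cell arrays of days 1 and 3. The untreated graft of day 3 had the acute phase gene Saa3 at 1593.5, and the graft of cyclosporine plus peptide of day 3 had Alas2, a haem synthesis gene of red cell precursors, at 3994.8.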
